A study of Drosophila melanogaster with 8 samples.

Results

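The muscle contractile genes described here are 10 genes of Drosophila: the myosin heavy chain gene Mhc, the actin genes Act57B, Act79B and Act88F, the myosin light chain genes Mlc1 and Mlc2, the troponin I gene wupA, the tropomyosin gene Tm2 and the muscle LIM protein genes Mlp60A and Mlp84B. Members were taken by symbol, as every probe set of the array whose only gene symbol is 1 of the 10. That gave 9 probe sets for 7 genes, of 18769 probe sets tested and 11982 genes named. Mhc, Act57B and wupA had no probe set under that rule and were not analysed here. Mlp60A had 3 probe sets and each other gene 1, and a gene with several was represented by the one with the highest mean over the arrays.

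Fly muscle contracts when myosin heads of the thick filament pull on actin filaments, and the troponin and tropomyosin of the thin filament hold this in check until calcium rises. Essential and regulatory light chains sit on the neck of each myosin head. The muscle LIM protein of Mlp84B lies at the Z-disc, where the thin filaments of neighbouring sarcomeres are anchored. The muscle of the head moves mainly the proboscis, the pharynx and the antennae. Indirect flight muscle of the thorax uses isoforms of its own, among them the actin Act88F, the troponin C of TpnC4 and flightin, the product of fln.

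The 8 Affymetrix arrays hold heads of the wild-type strain Canton-S. The 4 pulsed arrays came from flies that saw saturating light for 30 min beginning at ZT 15 (ZT counts hours from lights on), 3 h into the dark phase, and frozen 1 h after the pulse. The 4 unpulsed arrays came from control flies sampled at the same time, ZT 16.5, with no pulse. Both groups were 3 to 5 days old, were kept at 25 °C and had spent 4 days in cycles of 12 h light and 12 h dark. The labels give neither the sex of the flies nor whether the replicates came from separate cultures, so a p covers the spread among these arrays, which may be technical. Values are log2 signals as deposited, and the brightness of a probe set depends on its probes, so levels are compared between arrays and not between genes. The number of arrays limits the precision. Each array holds RNA of all head cells, so less muscle in a head and less RNA per muscle cell cannot be told apart.

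Pulsed replicate 2 stood apart from the other arrays. Its correlation with them across probe sets was 0.985 to 0.988, against 0.995 to 0.998 among the other 7, and 268 probe sets (1.43%) lay over 1 log2 unit above every other array there. All 9 measured markers of the male accessory gland were among these, with a mean level over the list of 7.35 log2 units on that array, against 2.49 to 2.52 on the other pulsed arrays and 2.48 to 2.53 on unpulsed arrays. Of 8 measured gut markers, 5 did the same, with a list mean of 5.08 there, 2.61 to 2.69 on the other pulsed arrays and 2.60 to 2.72 on unpulsed arrays. The yolk protein gene Yp1, a fat body transcript of females, was at 11.4 and 12.5 on pulsed replicates 1 and 2 and at 5.15 and 5.21 on replicates 3 and 4, and at 4.82 on unpulsed replicate 1 and 11.3 to 12.7 on the other unpulsed arrays. Yp1 was chosen after its values were seen. Because of pulsed replicate 2, the differences of the contractile genes and the medians of lists are given with and without that array. Differences of single genes of the other lists, and of the dim Mlp60A probe sets, are over all 8 arrays unless said otherwise.

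A pair of genes specific to indirect flight muscle separated this array too. TpnC4 was at 2.62, 6.41, 2.62 and 2.63 log2 units on pulsed replicates 1 to 4 and at 2.59, 2.60, 2.65 and 2.64 on unpulsed replicates 1 to 4. Its signal was thus below the array medians, 2.95 to 3.07, on every array but pulsed replicate 2. fln was at 2.82, 4.50, 2.82 and 2.83 in pulsed heads and at 2.73, 2.81, 2.85 and 2.91 in unpulsed heads, again with pulsed replicate 2 alone above the array medians. Of the 5 flight muscle markers, these were the 2 that lay over 1 log2 unit above every other array, and the list mean was 6.17 on pulsed replicate 2, 5.04 to 5.07 on the other pulsed arrays and 5.03 to 5.19 on unpulsed arrays. The other markers were Act88F, Mf and salm. The myofilin gene Mf was bright on all arrays (11.3 to 11.8) by its brightest probe set, with 11.45 on pulsed replicate 2. Its other probe set, singled out after its values were seen, was highest there, at 11.75. That was 0.57 above the mean of the other 7 arrays. The gene salm, for a transcription factor of flight muscle fate, was at 3.78 on pulsed replicate 2. It was at 3.83 on each other pulsed array and at 3.81 to 4.39 on unpulsed arrays.

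**Figure D1:**
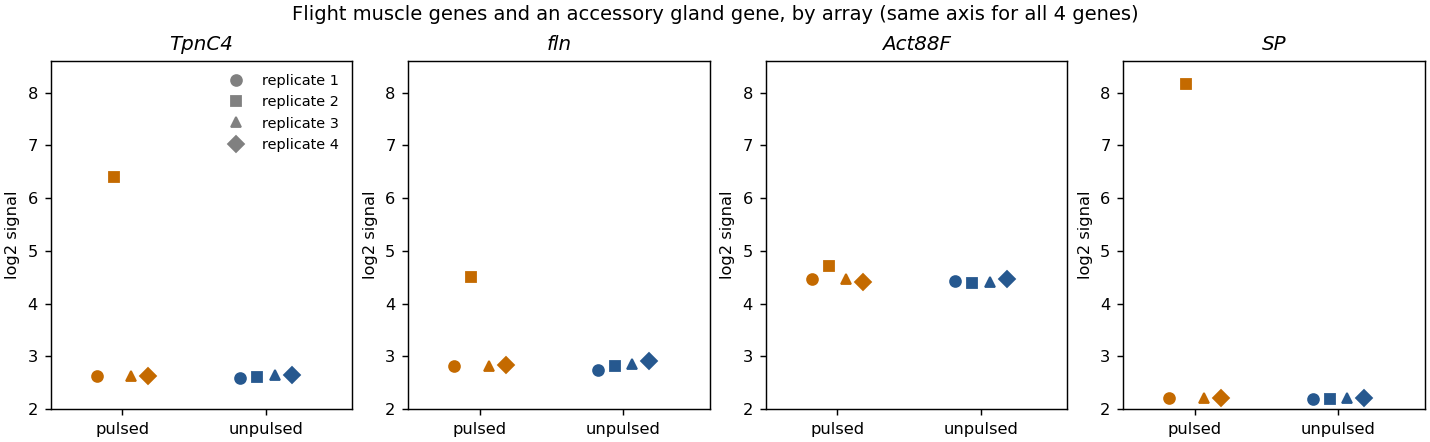
Log2 signal of TpnC4 and fln, of the flight muscle actin gene Act88F and of the accessory gland gene SP, 1 point per array, with pulsed arrays left of unpulsed arrays and a shared axis. TpnC4 (6.41), fln (4.50) and SP (8.16) stand out on pulsed replicate 2, while Act88F (4.70) lies only slightly above its other values.

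Of the 7 measured contractile genes, 0 lay over 1 log2 unit above every other array on pulsed replicate 2. Act79B, Act88F, Mlp60A and Mlp84B had their highest value there, 4 of 7 genes by their brightest probe sets. Of all probe sets, dim ones included, 9.92% did. The distance of that array from the mean of the other 7 was 0.90 log2 units for Act79B, 0.27 for Act88F, 0.29 for Mlp60A and 0.25 for Mlp84B, and 0.16 for Mlc1, 0.14 for Tm2 and -0.11 for Mlc2. The part of RNA from other tissue in these distances was not tested.

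No contractile gene passed the test between pulsed and unpulsed heads. With limma, 0 of the 9 probe sets reached an adjusted p of 0.05, as did 0 of all 18769 (0%), where the smallest adjusted p was 0.0611. Unadjusted, 2 of 9 reached a p of 0.05, both with higher signal in pulsed heads, against 2.4% of all probe sets on that side and 4.81% on either side. They were the probe set of Mlp84B and a dim probe set of Mlp60A, whose brightest probe set had a difference of -0.0091. The arrays of the groups did not overlap for 1 of the 9, with all pulsed arrays above all unpulsed ones, against 1.3% of all probe sets that way and 2.56% either way. Over the 7 genes the median log2 difference was 0.090, with 5 above and 2 below 0. The median of all probe sets, dim ones included, was -0.0031, and 41.4% of them were above 0. Without pulsed replicate 2 the median of the 7 genes was 0.046, with 5 of 7 above 0 again, and that of all probe sets was 0.0026. There too the same 2 of 9 contractile probe sets reached an unadjusted p of 0.05, against 3.24% of all.

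**Figure D2:**
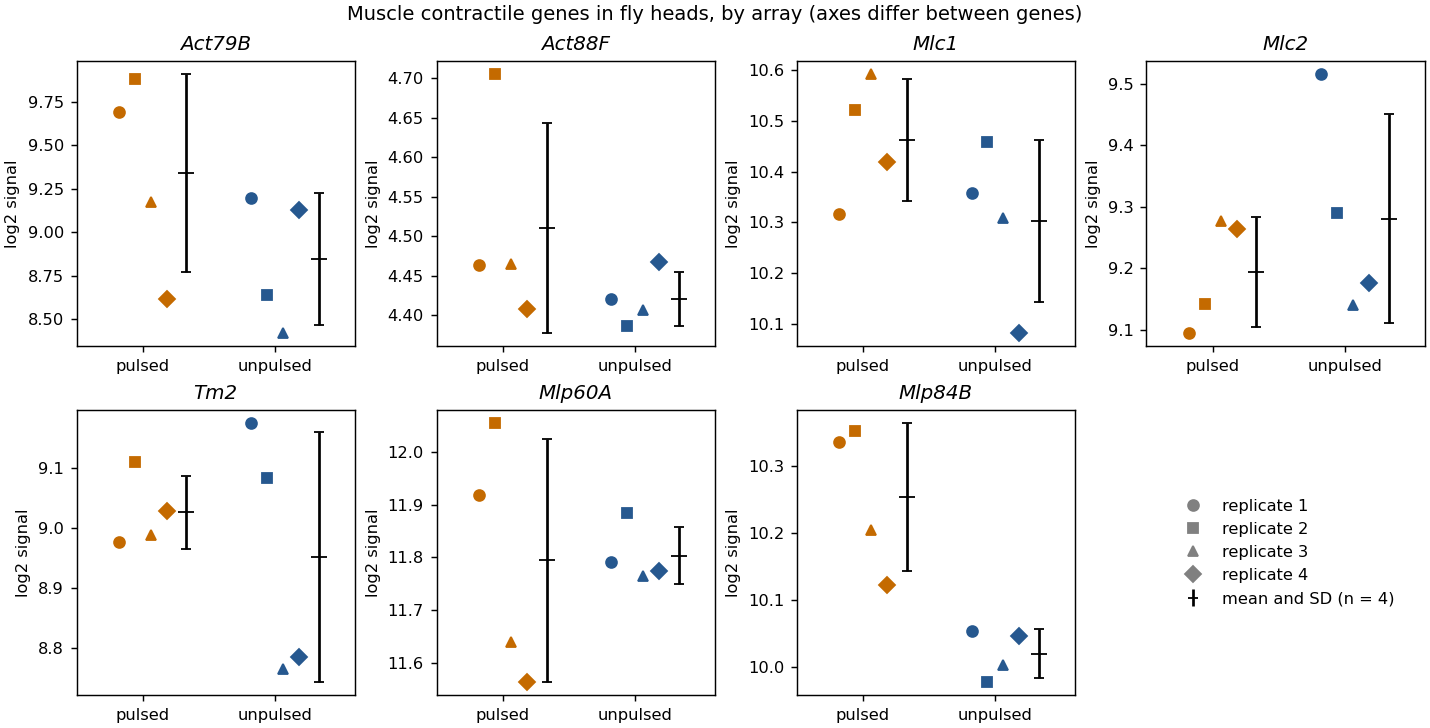
Log2 signal of each contractile gene on the 4 pulsed arrays (left) and the 4 unpulsed arrays (right of them), with the mean and SD of each group (n = 4). The groups overlap for 6 genes, and for Mlp84B all pulsed arrays (10.12 to 10.35) lie above all unpulsed ones (9.98 to 10.05).

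The actin genes differed in how much they varied. Act79B, an actin of tubular muscle, was at 9.69, 9.88, 9.17 and 8.62 on pulsed replicates 1 to 4 and at 9.20, 8.64, 8.42 and 9.13 on unpulsed replicates 1 to 4. Pulsed replicates 1 and 2 were above every unpulsed array, pulsed replicate 4 lay among the lower unpulsed ones, and the groups overlapped. The span of 1.46 log2 units between its highest and lowest array, 2.76-fold, was the widest of the 7 genes. Its SD over the 8 arrays (0.52) was higher than that of 97.6% of probe sets at or above the 40th percentile of mean signal, whose median SD was 0.14.

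Act79B was 0.50 log2 units higher in pulsed heads (SE 0.32, n = 4 each, limma adjusted p = 1.00). Without pulsed replicate 2 it was 0.31 (SE 0.31), and over all arrays left out in turn it ran from that value to 0.74 without pulsed replicate 4. Act88F was at 4.46, 4.70, 4.46 and 4.41 in pulsed heads and at 4.42, 4.39, 4.41 and 4.47 in unpulsed heads. Apart from pulsed replicate 2 the 7 values of Act88F lay between 4.39 and 4.47, and the difference of 0.090 (SE 0.064) was 0.025 (SE 0.025) without that array.

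Tm2, the tropomyosin gene, was at 8.98, 9.11, 8.99 and 9.03 in pulsed heads and at 9.17, 9.08, 8.76 and 8.78 in unpulsed heads. The pulsed arrays lay inside the unpulsed range, unpulsed replicates 1 and 2 were near the top and 3 and 4 at the bottom. The difference was 0.074 (SE 0.10), 0.046 without pulsed replicate 2, 0.15 without unpulsed replicate 1 and 0.012 without unpulsed replicate 3. The Tm2 probe set has the Affymetrix suffix s_at, which marks probes that match more than 1 transcript, so other transcripts may add to it.

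The myosin light chain genes had differences of opposite sign. Mlc1, the essential light chain, was at 10.32, 10.52, 10.59 and 10.42 in pulsed heads and at 10.36, 10.46, 10.31 and 10.08 in unpulsed heads. The lowest pulsed array, replicate 1, was below 2 unpulsed arrays, and unpulsed replicate 4 was lowest of all. The difference was 0.16 (SE 0.093), 0.14 without pulsed replicate 2 and 0.086 without unpulsed replicate 4. Mlc2, the regulatory light chain, was at 9.10, 9.14, 9.28 and 9.26 in pulsed heads and at 9.52, 9.29, 9.14 and 9.18 in unpulsed heads. The groups overlapped, with unpulsed replicate 1 above the rest. Its difference was -0.086 (SE 0.089), -0.069 without pulsed replicate 2 and -0.0080 without unpulsed replicate 1.

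The muscle LIM protein genes were the last of the measured genes, and the difference between them was not tested. Mlp84B, whose product sits at the edge of the Z-disc, was at 10.34, 10.35, 10.20 and 10.12 in pulsed heads and at 10.05, 9.98, 10.003 and 10.05 in unpulsed heads. All 4 pulsed arrays were above all 4 unpulsed ones, the only contractile gene for which this held. The log2 difference was 0.23 (SE 0.055, n = 4 per group), a 1.18-fold higher signal, with an unadjusted p of 0.00365 and a limma adjusted p = 0.805. Without pulsed replicate 2 it was 0.20 (SE 0.053, unadjusted p = 0.00885, limma adjusted p = 1.00) and the groups still did not overlap, as for 1.81% of all probe sets with pulsed arrays above. This probe set also has the suffix s_at.

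Mlp60A, the other muscle LIM protein gene, was at 11.92, 12.05, 11.64 and 11.56 in pulsed heads and at 11.79, 11.88, 11.77 and 11.77 in unpulsed heads. Pulsed replicates 1 and 2 were at the top and 3 and 4 at the bottom, so the unpulsed arrays lay between them. The group means were 11.79 in pulsed and 11.80 in unpulsed heads, a difference of -0.0091 (SE 0.11) that was -0.096 without pulsed replicate 2 and 0.068 without pulsed replicate 4. The SD between arrays was 0.23 in pulsed and 0.055 in unpulsed heads, and this contrast in spread was not tested. The other Mlp60A probe sets were dim, at 3.02 to 3.23 on pulsed and 2.97 to 3.06 on unpulsed arrays for 1 of them (0.13, SE 0.055, unadjusted p = 0.0498, limma adjusted p = 1.00) and at 2.55 to 2.61 and 2.40 to 2.62 for the other (0.039, SE 0.047).

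**Figure D3:**
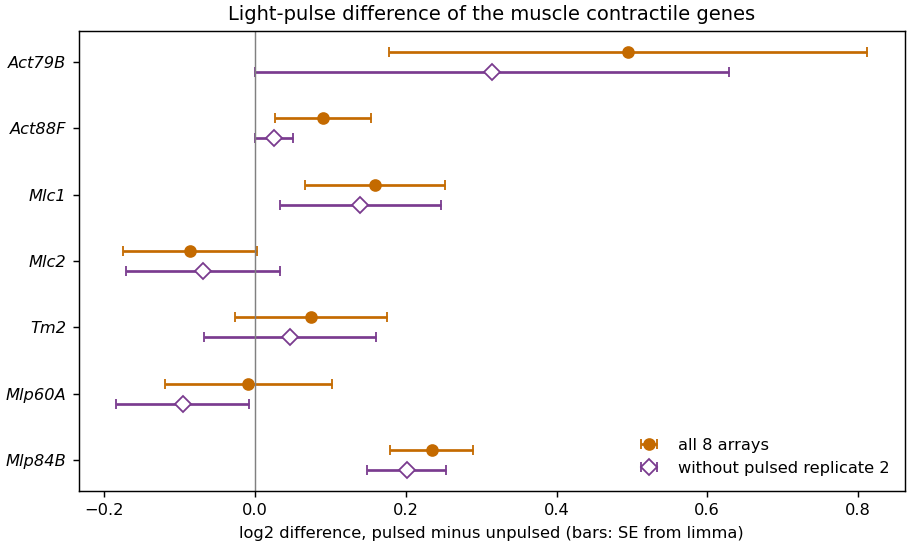
Log2 difference between pulsed and unpulsed heads for each contractile gene, with its SE from limma, over all 8 arrays (filled) and without pulsed replicate 2 (open). Act79B has the largest difference (0.50) and the largest SE (0.32), while Mlp84B (0.23) has the difference that is largest against its SE (0.055).

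Mlp84B followed a sign of RNA integrity across the arrays. The array carries control probe sets at the 3′ and the 5′ end of the GAPDH transcript, and their log2 difference is larger where labelled RNA reaches less far towards the 5′ end. It was 0.805, 0.806, 0.889 and 0.928 on pulsed replicates 1 to 4 and 0.977, 1.09, 1.06 and 0.999 on unpulsed replicates 1 to 4, so that it separated the groups as well. Mlp84B was higher where this difference was smaller, with r = -0.98 (Spearman rho = -0.98, n = 8 arrays), r = -0.92 on values centred within the groups, -0.97 without pulsed replicate 2 and -0.96 without the 2 arrays farthest from the median. Among 11261 probe sets at or above the 40th percentile of mean signal, 0.0178% had an r this low, and 0.373% a within-group r this low. Mlp84B was set against this control after its values were seen.

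Act79B followed the same control, at r = -0.84 (rho = -0.74) and -0.93 within the groups, where 1.74% and 0.311% of those probe sets were as low. Its r was -0.77 without pulsed replicate 2 and -0.54 without the 2 farthest arrays. Act88F had r = -0.68, and Mlc1, Mlc2, Tm2 and Mlp60A lay between -0.31 and 0.33. The eIF-4a control gave like values, -0.96 for Mlp84B and -0.93 for Act79B, and the actin control gave -0.31 and -0.41. With the GAPDH difference as a covariate, an alternative added after seeing the data, the log2 difference of Mlp84B was 0.0069 (SE 0.051, limma adjusted p = 0.984) and that of Act79B -0.85 (SE 0.26, adjusted p = 0.984). As the covariate itself separates the groups, the light pulse and the state of the RNA by this control cannot be told apart for these genes. The same holds for the other differences between the groups. The eIF-4a 3′ minus 5′ difference was 2.81 to 3.15 on pulsed and 3.13 to 3.42 on unpulsed arrays. That of actin was 1.00 to 1.34 on pulsed and 1.21 to 1.58 on unpulsed arrays, so both overlapped between the groups.

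**Figure D4:**
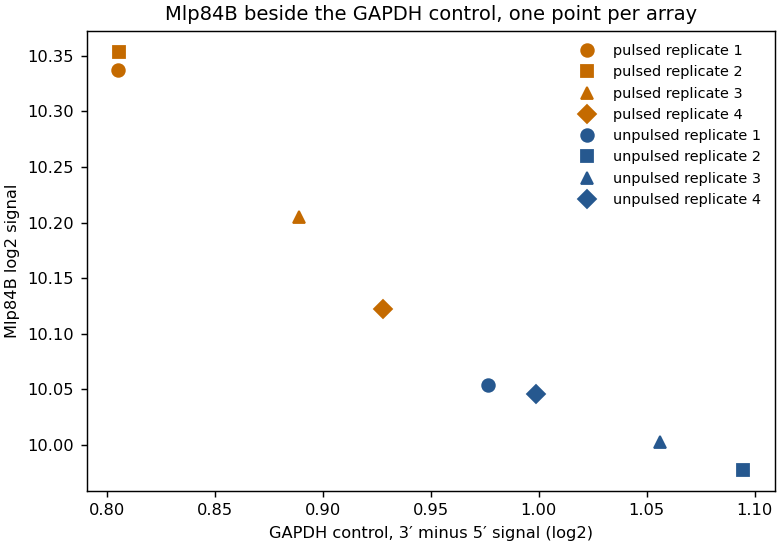
Log2 signal of Mlp84B against the 3′ minus 5′ log2 difference of the GAPDH control, 1 point per array, pulsed and unpulsed. The points fall along 1 line (r = -0.98), with pulsed arrays at 0.805 to 0.928 and unpulsed arrays at 0.977 to 1.09 on the GAPDH scale.

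Contractile genes did not vary across arrays as 1 group. Over the 21 pairs of the 7 genes the median Pearson r across 8 arrays was 0.28, in a range of -0.44 to 0.85, with 7 pairs above 0.5 and 4 below 0. Across all pairs of 8386 genes at or above the 40th percentile the median r was 0.037, and 15.2% of pairs were above 0.5. These are descriptions of arrays that share their labelling and normalization. Act79B, Mlp84B and Act88F varied together, at r = 0.85 for Act79B with Mlp84B, 0.78 for Act79B with Act88F and 0.73 for Act88F with Mlp84B. Of the 7 genes, they also had the lowest r with the GAPDH difference, at -0.84, -0.98 and -0.68. Within the groups these were -0.93, -0.92 and -0.61, with Mlp60A at -0.60. The part of the GAPDH difference in the covariation was not tested. Tm2 varied with both light chain genes, at 0.62 with Mlc1 and 0.60 with Mlc2, but Mlc1 with Mlc2 was at only 0.19. Mlp60A was at 0.63 with Act79B and 0.64 with Act88F. Between Mlc1, Mlc2 or Tm2 and Act79B, Act88F or Mlp84B the values ran from -0.44 (Mlc2 with Mlp84B) to 0.36 (Mlc1 with Mlp84B).

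Leaving out pulsed replicate 2 brought the median r to 0.038, with 5 of 21 pairs above 0.5 and 8 below 0. Over those 7 arrays all pairs of the 8386 genes had a median r of 0.042, and 17.6% were above 0.5. The 5 pairs above 0.5 were at 0.77, 0.79 and 0.67 for Act79B with Mlp84B, Act79B with Act88F and Act88F with Mlp84B, and at 0.56 and 0.77 for Tm2 with Mlc1 and with Mlc2. Mlp60A had r of 0.37 there with Act79B, 0.014 with Act88F and 0.028 with Mlp84B, against 0.63, 0.64 and 0.41 over all 8 arrays. On values of all 8 arrays centred within pulsed and unpulsed heads, those 3 pairs were at 0.75, 0.74 and 0.85. Without the 2 arrays farthest from the median of the first gene named, r was 0.73, 0.78 and 0.56 for Act79B with Mlp84B, Act79B with Act88F and Act88F with Mlp84B. It was 0.58 for Mlc1 with Tm2 and 0.48 for Mlc2 with Tm2. Which genes are named together was read from these correlations and has no test.

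**Figure D5:**
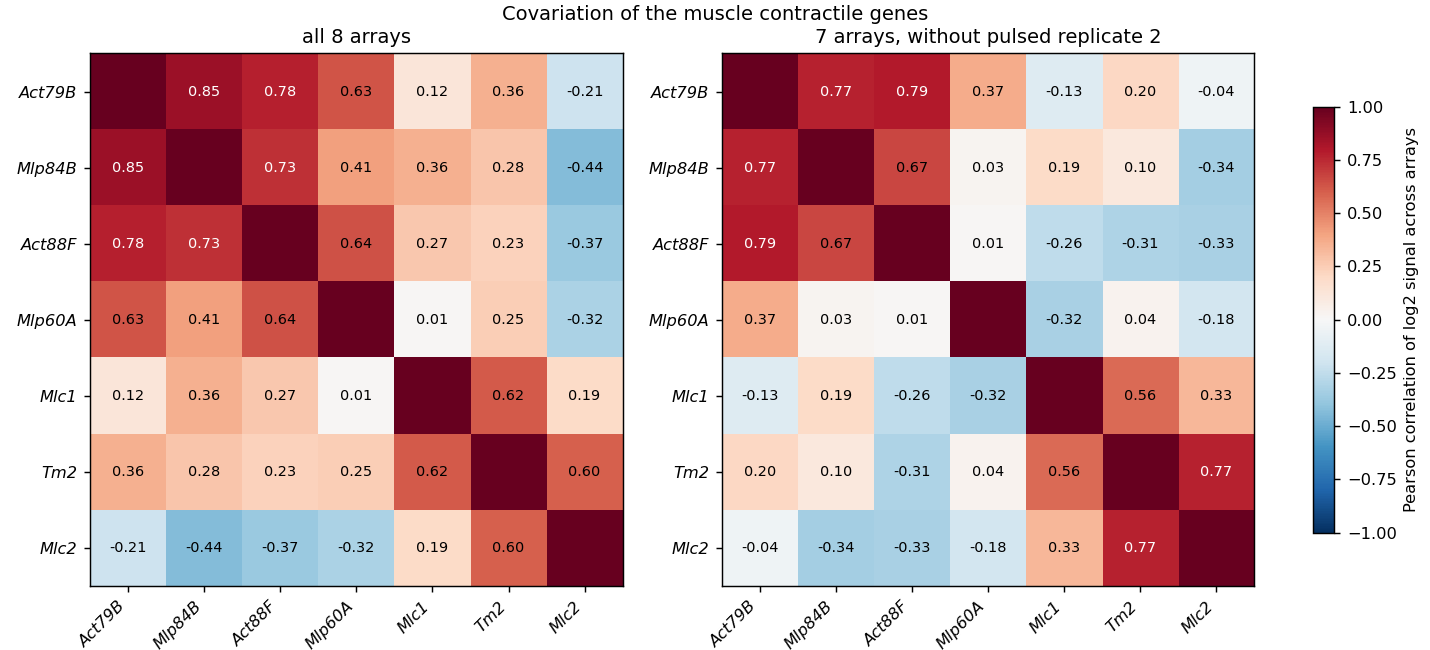
Pearson correlation of log2 signal between each pair of contractile genes, over all 8 arrays (left) and over the 7 arrays without pulsed replicate 2 (right). Act79B, Mlp84B and Act88F are at 0.73 to 0.85 on the left and at 0.67 to 0.79 on the right. On the right Act88F spans only 4.39 to 4.47, and its Spearman rho is 0.57 with Act79B and with Mlp84B. Mlp60A with Act88F is at 0.64 on the left and 0.014 on the right.

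The genes outside the list with the profile most like the mean of the contractile genes were, over all 8 arrays, CG10674 (r = 0.96), Obp83ef (0.96), tub (0.94), ND-B22 (0.94), Ldaf1 (0.94), Srx (0.93), MCPH1 (0.93) and CG5023 (0.93), of 8379 genes. Over the 7 arrays without pulsed replicate 2 they were nvy (0.99), CG43394 (0.99), Lime (0.98), CG31445 (0.98), CycK (0.97), Bre1 (0.97), beat-Vb (0.97) and form3 (0.97). No gene stood in both sets of 8, and no gene of the muscle lists stood in either. The mean profile was taken from centred values without scaling, so Act79B weighs most in it. Its SD over the 8 arrays was 0.52, against 0.10 to 0.16 for the other contractile genes.

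In 7 other lists, 6 of muscle genes and 1 of cytoplasmic actin and myosin genes, 39 genes and 64 probe sets were measured, and 0 probe sets passed limma's adjusted p of 0.05 in either direction. Unadjusted, 6 of 64 reached a p of 0.05, against 4.81% of all probe sets. The signal was higher in pulsed heads for 2 of them, against 2.4% of all, and lower for 4, against 2.41%. All pulsed arrays were above all unpulsed ones for 1 of 64, against 1.3% of all probe sets, and below them for 4, against 1.26%. Those 4 stood for jp, RyR, sesB and Mlc-c, of which Mlc-c is in the list of cytoplasmic genes, and the 1 for Zasp66. The GAPDH 3′ minus 5′ difference, which separated the groups, is given beside each of these, and its part in the differences was not tested.

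Of other thin filament genes 6 of 9 were measured, 4 with positive differences, with a median log2 difference of 0.042 and -0.035 without pulsed replicate 2. Act87E, another muscle actin, had 10.27, 10.36, 10.28 and 10.20 on pulsed arrays and 10.22, 10.12, 10.01 and 10.15 on unpulsed arrays, a difference of 0.15 (SE 0.052, unadjusted p = 0.0228, limma adjusted p = 0.965). Its groups overlapped by 1 array, as pulsed replicate 4 was below unpulsed replicate 1, and it had r = -0.88 with the GAPDH difference (-0.69 within the groups). up, the troponin T gene, was at 6.12, 6.38, 7.81 and 7.31 on pulsed arrays and 8.02, 8.08, 7.24 and 6.88 on unpulsed arrays (-0.65, SE 0.46). The troponin C gene TpnC73F was at -0.17 (SE 0.11), and TpnC4, with its single high array, was at 0.95 (SE 0.88) over all arrays and 0.0063 without pulsed replicate 2.

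All 5 other thick filament genes were measured, 2 with positive differences and a median of -0.047, or -0.029 without pulsed replicate 2. The paramyosin gene Prm was at 0.15 (SE 0.080), Strn-Mlck, of a titin-like kinase, at -0.12 (SE 0.083) and bt, which encodes the elastic protein projectin, at -0.27 (SE 0.20, and -0.082 without unpulsed replicate 1). fln was at 0.42 (SE 0.39) and at -0.0012 without pulsed replicate 2.

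Z-disc and elastic filament genes, all 9 measured, had a median of 0.0064, with 5 above 0, and of 0.034 without pulsed replicate 2. Their gene values with the smallest unadjusted p were those of Zasp66 (0.090, SE 0.060), the alpha-actinin gene Actn (0.11, SE 0.087), Zasp52 (-0.077, SE 0.081) and tn (0.071, SE 0.079). A dimmer probe set of Zasp66, a Z-disc protein gene, was singled out after its values were seen: it was at 9.74, 9.86, 9.66 and 9.65 in pulsed heads and at 9.54, 9.41, 9.28 and 9.37 in unpulsed heads. There the groups did not overlap, and the difference was 0.32 (SE 0.068, unadjusted p = 0.00206, limma adjusted p = 0.694). Across the 8 arrays this probe set had r = -0.92 with the GAPDH difference, and -0.67 within the groups. The brightest Zasp66 probe set had r = -0.19, and the probe sets of Zasp66 thus disagreed in size.

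Calcium handling genes, 6 of 8 measured, all had negative differences by their brightest probe sets. Of all probe sets, dim ones included, 41.4% were above 0. The median of the 6 genes was -0.23, or -0.22 without pulsed replicate 2. Without that array 1 of the 6, Ca-beta, was above 0 (0.046). Other probe sets of SERCA and Ca-beta, singled out after their values were seen, did not all have negative differences. SERCA was at -0.016 (SE 0.11) by its brightest probe set, and at 0.13 (SE 0.13) and 0.032 (SE 0.18) by its others. Without pulsed replicate 2 these were -0.067, 0.080 and -0.026. Ca-beta was at -0.054 (SE 0.36), and its dimmer probe sets were at 0.083 (SE 0.076) and -0.0081 (SE 0.013). jp, the junctophilin gene that ties the plasma membrane to the calcium store, was at 5.16, 4.98, 5.24 and 5.29 in pulsed heads and at 5.55, 5.47, 5.50 and 5.35 in unpulsed heads (-0.30, SE 0.076, unadjusted p = 0.00566, limma adjusted p = 0.818). RyR, the calcium release channel, was at 5.45, 5.45, 4.97 and 5.44 in pulsed heads and at 6.17, 5.76, 5.55 and 5.58 in unpulsed heads (-0.44, SE 0.17, unadjusted p = 0.0373, limma adjusted p = 0.990). Neither gene had a pulsed array as high as its lowest unpulsed array. Across the 8 arrays the GAPDH difference had r = 0.87 with jp (0.54 within the groups) and 0.46 with RyR (-0.41 within the groups). With the other 4 genes, by their brightest probe sets, r ran from -0.38 to 0.50. Within the groups it was -0.87 for SERCA, 0.71 for Ca-beta, 0.10 for Ca-alpha1D and -0.41 for Itpr. The other probe sets of SERCA had r = -0.70 (-0.83 within the groups) and -0.32 (-0.52 within the groups). Ca-alpha1D, a calcium channel subunit, was at -0.33 (SE 0.20) and Itpr, the inositol trisphosphate receptor, at -0.17 (SE 0.18). These genes are active in neurons too, and neuron markers, 6 of 8 measured, had list means of 8.50 to 8.84 on pulsed and 8.57 to 8.92 on unpulsed arrays (median difference -0.093, or -0.021 without pulsed replicate 2), whose part in these values was not tested.

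Energy genes of muscle, 7 of 8 measured, had a median of -0.032, with 5 below 0, and of -0.025 without pulsed replicate 2. sesB, the mitochondrial ADP/ATP carrier, was at 14.36, 14.33, 14.42 and 14.50 in pulsed heads and at 14.51, 14.54, 14.52 and 14.50 in unpulsed heads (-0.12, SE 0.036, unadjusted p = 0.0151, limma adjusted p = 0.897), with the groups apart by a narrow margin. sesB had r = 0.94 with the GAPDH difference across the 8 arrays, and 0.83 within the groups. Argk1, the arginine kinase that buffers ATP in muscle, was at 0.19 (SE 0.11), Pglym78 at -0.052 (SE 0.043) and Gpdh1 at 0.095 (SE 0.12). Transcription factor and RNA-binding protein genes of muscle, 3 of 8 measured, had a median of -0.072, with 2 below 0, and of -0.020 without pulsed replicate 2. They were salm (-0.19, SE 0.12), tx (0.18, SE 0.12) and vg (-0.072, SE 0.086).

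Cytoplasmic actin and myosin genes, 3 of 7 measured, had a median of -0.073, with 2 below 0, and of -0.059 without pulsed replicate 2. Mlc-c, the light chain of non-muscle myosin, was at 11.19, 11.19, 11.18 and 11.19 in pulsed heads and at 11.24, 11.32, 11.51 and 11.33 in unpulsed heads. All pulsed arrays were below the unpulsed ones, and the difference was -0.16 (SE 0.054, unadjusted p = 0.0220, limma adjusted p = 0.965). Mlc-c had r = 0.74 with the GAPDH difference, and 0.27 within the groups. tsr, the cofilin gene, was at 0.14 (SE 0.062) and chic, the profilin gene, at -0.073 (SE 0.044).

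Markers of other head cells lay close together in both groups. List means on pulsed and on unpulsed arrays were 12.8 to 13.0 and 12.9 to 13.2 for 5 of 8 photoreceptor markers, 9.28 to 9.37 and 9.24 to 9.41 for 7 of 8 glia markers, and 7.73 to 7.88 and 7.76 to 7.87 for all 6 haemocyte markers. Fat body and yolk markers, 7 of 8 measured, ranged from 8.50 to 11.3 on pulsed and from 8.41 to 11.4 on unpulsed arrays, with the yolk protein genes behind the range. In these 4 lists and in those of neurons, flight muscle, accessory gland and gut, 0 probe sets passed limma's adjusted p of 0.05.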

How the data were processed

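Total RNA of heads was extracted with Trizol and biotin-labelled by in vitro transcription with an Affymetrix kit, per the labels' protocols. The authors deposited 1 table of log2 values, with 18952 probe sets and 8 arrays. The log2 unit was read from the values, and background correction, probe summary and normalization are not given in the sources used here. Medians per array of 2.95 to 3.07 were taken to mean a common scale, and the values were used as deposited.

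After 183 control probe sets were left out, 18769 were tested with limma 3.58.1 in R 4.3.3 (lmFit, eBayes, two-sided, Benjamini-Hochberg over all probe sets, threshold 0.05). Names came from the platform annotation, with 1 symbol for 13647 probe sets, several for 402 and none for 4903, and 13544 symbols were updated through a RefSeq gene table (assembly Release 6 plus ISO1 MT), used for names only. Older list symbols were matched through its synonyms. No probe set with several symbols was named.

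The 10 genes, the 7 lists of other muscle and cytoplasmic genes, the 8 marker lists and the tests were chosen with earlier results of these data known. Text names the 10 genes, up to 4 genes per list by unadjusted p, and the 8 genes most like the mean profile over 8 and over 7 arrays. Others are said to have been chosen after their values were seen.

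Alternatives were median-centred arrays, quantile normalization, 16 added to the linear values, a filter at the 40th percentile of mean signal (11261 left), a trended and robust spread, the replicate number as a block, each array left out, and other thresholds. A GAPDH covariate for the contractile genes, and the unadjusted threshold for those 7 lists, were added after seeing the data. In each of 20 simulations of 18769 probe sets, 200 at or above the 40th percentile were changed. The fit recovered 56.9% of those shifted by 0.5 log2 units, 87.9% of those by 1 and 97.5% of those by 2. Of the calls, 6.41% were unchanged probe sets. The simulated noise was normal and independent, with the moderated SD of each probe set from the fit. No outlying array such as pulsed replicate 2 and no shared RNA difference was simulated, so these shares need not hold for the arrays here. Numbers did not pair the replicates: deviations of same-numbered arrays correlated at 0.059, -0.029, -9.4e-04 and -0.10.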

Additional observations from a re-analysis of the deposited data

Results flagged for a closer look

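Single arrays lay far from the rest of their group, by Dixon's ratio of the gap to the range above its critical value for 4 samples, in 13 of 128 groups of values tested. About 1 in 20 is flagged by chance. None of the 13 belonged to a contractile gene of the list. Pulsed replicate 2 accounted for 10 of them. It was high for the flight muscle genes TpnC4 (6.41, against 2.62 to 2.63 on the other pulsed arrays) and fln (4.50, against 2.82 to 2.83). It was high for the accessory gland genes SP (8.16, against 2.20 to 2.21), Acp63F (8.15, against 2.57 to 2.84), Acp29AB (4.47, against 2.56) and Acp76A (3.75, against 2.36 to 2.37). It was also high for the gut protease genes lambdaTry (4.75, against 2.30 to 2.32), Jon99Ci (4.49, against 2.31) and epsilonTry (2.50, against 2.09 to 2.10). salm was low there by a margin of 0.049 (3.78, against 3.83). The others were RyR on pulsed replicate 3 (4.97, against 5.44 to 5.45), nSyb, of synaptic vesicles, on unpulsed replicate 1 (9.70, against 9.39 to 9.43), and the storage protein gene Lsp2 on unpulsed replicate 3 (13.9, against 14.8 to 14.9).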

How the results depend on the processing

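The count of contractile probe sets past an adjusted p of 0.05 with limma was 0 under all 14 planned refits and with the GAPDH covariate, and 2 of 9 at an unadjusted p of 0.05. That of the 7 other lists was 0 in the planned refits and 6 of 64 at an unadjusted p of 0.05. Over all probe sets it was 1 with median-centred arrays, with a trended and robust spread or without dim probe sets, 2 at an adjusted p of 0.1 and 902 at an unadjusted p of 0.05. The median log2 difference of the contractile genes was 0.090 with the replicate block too, and with the mean of all probe sets of a gene. For these genes it was 0.061 to 0.077 under other scalings and 0.046 to 0.15 with an array left out. Their median r ran from 0.038 without pulsed replicate 2 to 0.45 without unpulsed replicate 2, and was 0.17 after quantile normalization. With the replicate block no other call changed. Of 64 named probe sets, 9 of them contractile, 53 kept their sign under every alternative run, though 5 dim ones are absent from the filtered refit. The GAPDH covariate was examined for the 9 contractile ones only, so the signs of the 55 others were not set against it. With an array left out, Mlp60A ran from -0.096 to 0.068, its dimmest probe set from -0.0069 to 0.068, fln from -0.0012 to 0.56, Gpdh1 from -0.0019 to 0.19, Mf from -0.13 to 0.040, wrapper from -0.019 to 0.057, Gat from -0.12 to 0.050, Lsp2 from -0.054 to 0.31 and Pxn from -0.14 to 0.062. The GAPDH covariate turned Act79B (-0.85), Act88F (-0.087) and the dimmest Mlp60A probe set (-0.047), and the cause was not tested.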
